A study of Mus musculus with 14 samples.

Results

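The quantity described here is how far 3 days of high-fat diet changed the enrichment of each RNA in ribosomes carrying phosphorylated S6, in the mouse hypothalamus. For every gene it is the diet difference in the precipitate minus the diet difference in the whole lysate. A positive value means that the RNA was more enriched, or less depleted, by the precipitation on high-fat diet than on control diet. The rule took all 14 libraries and every gene with a mean of at least 1 FPKM over them, which left 12478 of the 14531 entries of the table. FPKM is a count of fragments divided by transcript length and library size, and the read depth behind it is unknown, so counting intervals are not given. All differences were computed on log2(FPKM + 1), where a difference of 1 is a 2-fold change and the change of genes near or below 1 FPKM is understated.

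The mice were C57BL/6N males aged 10 weeks. They were fed for 3 days with high-fat diet (HFD) or control diet (NCD), and the labels name no transgene or other treatment in either group. Hypothalami were pooled, 8 to a pool, and each library stands for 1 pool. The groups were 4 HFD IP libraries, 3 NCD IP libraries, 4 HFD input libraries and 3 NCD input libraries. HFD IP and NCD IP are RNA precipitated with an antibody against phosphorylated S6, and HFD input and NCD input are RNA of the lysate before precipitation. Per the labels there were 4 precipitations in each condition, and 3 of those on control diet were analysed here. A control antibody was not analysed here, so RNA carried along without such ribosomes is part of every IP value.

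Ribosomal protein S6 sits in the small ribosomal subunit and is phosphorylated by kinases downstream of mTORC1 and of neuronal activity. Ribosomes that carry the mark therefore come preferentially from cells that were active shortly before dissection, and the RNA bound to them reports both which cells were active and which messages those cells held. In the arcuate nucleus, Agrp and Npy mark neurons that promote feeding and Pomc marks neurons that restrain it. Subtracting the input removes a diet difference that is already present in the RNA of the whole tissue. In bulk tissue, a change in the number of cells of a type and a change in RNA per cell cannot be told apart.

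The IP libraries varied more than the input libraries. Genes of the lateral and arcuate hypothalamus were present in input, where Pmch, a peptide gene of the lateral hypothalamus, was at 77.1 to 119 FPKM under HFD and 76.7 to 98.3 FPKM under NCD. The median SD of a gene between libraries of a group, on the log2 scale, was 0.554 in HFD IP, 0.715 in NCD IP, 0.171 in HFD input and 0.166 in NCD input. Entries listed at 0 made up 1.40% to 9.57% of the table in HFD IP, against 0.771% to 10.9% in NCD IP, with the highest share in the library of index 0 in each case. They made up 0.440% to 0.957% in HFD input, against 0.282% to 0.626% in NCD input. An entry at 0 can be a failed estimate in such a table, so a gene there is described as listed at 0. The p-values given here measure spread between libraries, each of 1 pool, so differences of precipitation and library preparation are part of that spread. They do not measure spread between single mice. The main limma fit took IP and input libraries as independent, with 1 variance per gene for both fractions.

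Enrichment itself was widespread on both diets. With limma and Benjamini-Hochberg adjustment over all 12478 genes, IP differed from input in 4194 genes under HFD (33.6%) and in 3314 genes under NCD (26.6%), at an adjusted p under 0.05. The difference between the diets passed in 1 gene (0.00801%), the antisense gene model Gm17122, which was lower. No gene passed as higher, and the second smallest adjusted p was 0.101. Unadjusted p was under 0.05 in 844 genes (6.76%), 415 higher (3.33%) and 429 lower (3.44%). The median difference over all tested genes was -0.02 and the median absolute difference was 0.418, below the median standard error of 0.562. Other fits of the same contrast gave between 0 and 128 genes. The 128 came when the NCD IP library with index 1 was left out. The NCD IP library with index 0 gave 7 when left out, both IP libraries of index 0 gave 12, and the control-diet pair of index 1 gave 21.

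The diet difference in IP made up nearly all of the spread. Its median absolute value was 0.399, against 0.104 for the diet difference in input. Of the 844 genes with an unadjusted p under 0.05, the IP term was the larger one in 833 (98.7%), against 82.4% of all tested genes. The difference was above 1 in 856 genes and below -1 in 961 genes.

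**Figure D1:**
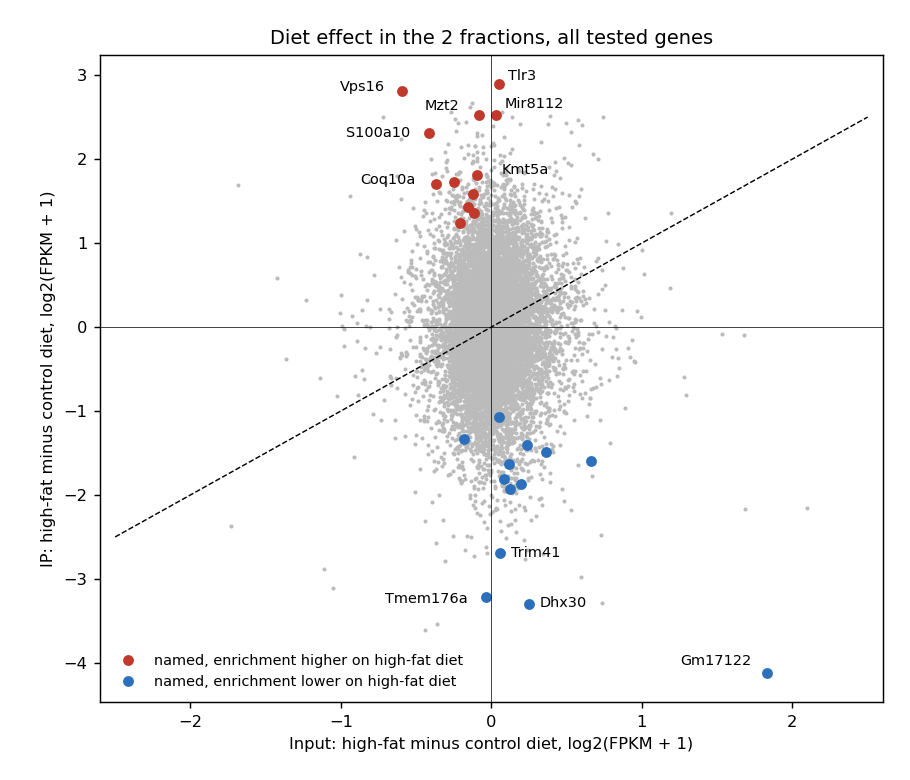
Each point is 1 of the 12478 tested genes, with the diet difference in input (high-fat minus control, log2(FPKM + 1)) on the x axis and the diet difference in IP on the y axis. On the dashed line the diet differences are equal. The cloud is taller than it is wide, with a median absolute value of 0.399 in IP and 0.104 in input, and Gm17122 lies at the lower right.

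Gm17122 is annotated as an antisense RNA gene. It had values of practically 0 in all 4 IP libraries on high-fat diet, against 12.9, 11.5 and 28.9 FPKM in NCD IP. In input it went the other way, with 12.9, 14.4, 7.12 and 2.02 FPKM under HFD and 0.989, 1.71 and 1.53 FPKM under NCD. Neither fraction's diet groups overlapped, and the precipitate was below the lysate in every high-fat pair and above it in every control pair. The enrichment was -3.09 ± 0.46 under HFD and 2.86 ± 0.53 under NCD (log2), and the difference was -5.95 ± 0.70 (limma, adjusted p = 0.0053). The call was lost when each library or each fraction was given its own variance (limma, adjusted p = 0.50 with array weights and 0.67 with separate variances for IP and input). It was also lost when the high-fat pair of index 0, 1 or 2 or the control pair of index 0 or 2 was left out, with adjusted p of 0.060 to 0.099. With the pair as a replicate block, limma gave an adjusted p of 0.0662 for Gm17122.

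The model lies on chromosome 5 at 113842601 to 113843116, plus strand (GRCm38), inside exons of Coro1c, which is on the other strand and encodes an actin-binding coronin. The library kit does not mark strand, so reads of Gm17122 and Coro1c cannot be told apart there. Coro1c itself was at 7.30, 11.3, 6.95 and 15.6 FPKM in HFD IP, against 44.3, 21.9 and 13.2 FPKM in NCD IP, with a difference of -1.06 ± 0.50 (limma, adjusted p = 0.74). Its values had no zeros and its enrichments overlapped between the diets.

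The enrichments of the 4 high-fat pairs lay entirely above those of the 3 control pairs in 439 genes (3.52%) and entirely below them in 399 (3.2%), together 6.72% of genes, where a pair is an IP and an input library of the same diet and index. Of these, 511 also had an unadjusted p under 0.05. The 12 genes in each direction with the smallest p among them, at a mean of at least 5 FPKM and with a usual symbol, are described next as values that did not pass the adjusted test. Their adjusted p by limma ran between 0.10 and 0.49. The mean used for naming includes the group where a gene is high, so a gene can pass through that group. Pcif1, S100a10 and Mzt2 averaged 17.3, 25.7 and 24.0 FPKM in HFD IP and no more than 5.98 in any other group. Trim41, Ap5s1, Tmem176a and Polk averaged 26.4, 15.9, 23.1 and 14.4 FPKM in NCD IP. In any other group these averaged no more than 5.62 FPKM.

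**Figure D2:**
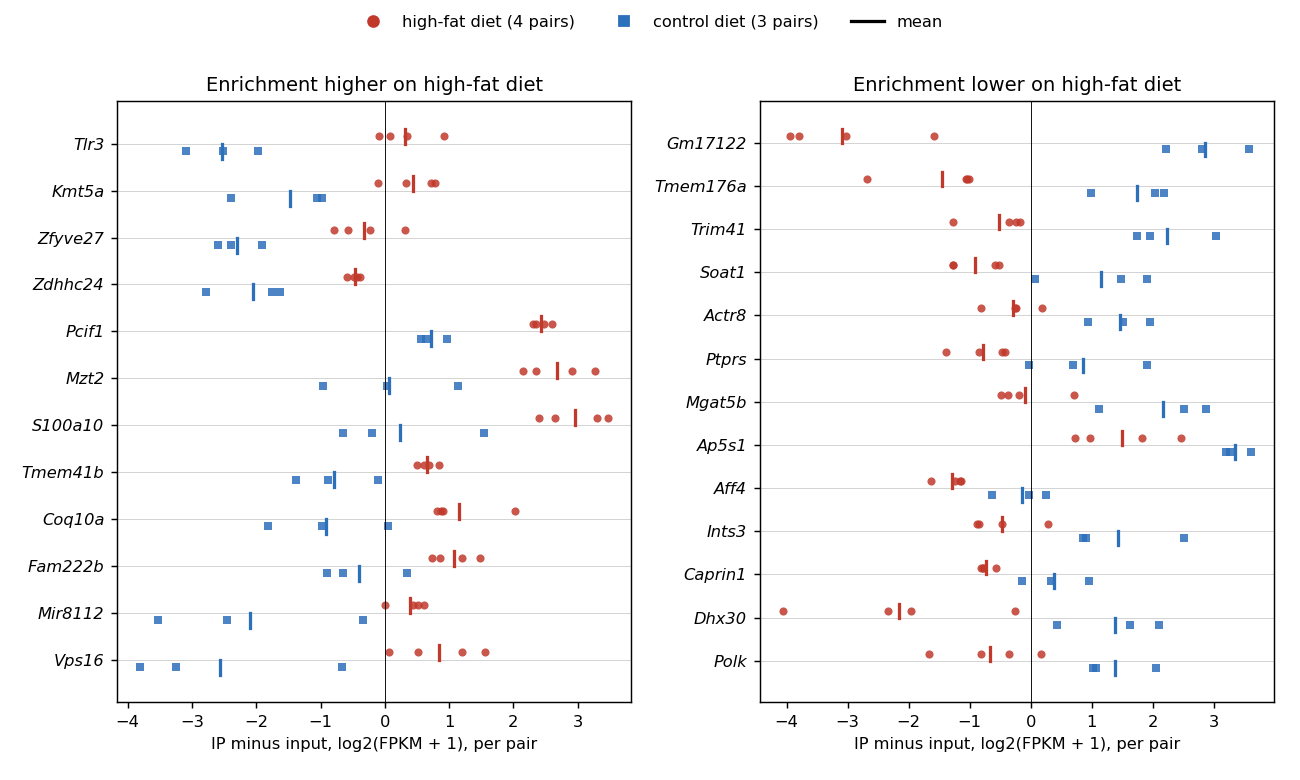
Enrichment (IP minus input, log2(FPKM + 1)) of each pair is shown for 12 genes higher and 13 genes lower on high-fat diet, with circles for the 4 high-fat pairs, squares for the 3 control pairs and bars for means. In each gene the circles lie wholly to 1 side of the squares, which is how the genes were chosen.

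Among genes with higher values, Tlr3, the endosomal receptor of double-stranded RNA, had the smallest p. Its level was 13.7, 17.7, 9.37 and 11.3 FPKM in HFD IP, against 0.215, 1.43 and 1.10 FPKM in NCD IP. Input was level, at 14.6, 8.88, 8.83 and 8.66 FPKM under HFD and 9.40, 8.57 and 11 FPKM under NCD. The 4 high-fat precipitates thus held about as much Tlr3 as the lysate, while the 3 control precipitates held far less than any other library. The enrichment was 0.31 ± 0.30 under HFD and -2.53 ± 0.35 under NCD, and the difference was 2.84 ± 0.46 (limma, adjusted p = 0.10). It was past the threshold in 5 of 31 alternatives. Among these were the fit without a trend in the variance and the fit without both IP libraries of index 0 (limma, adjusted p = 0.034). In the others the adjusted p of Tlr3 by limma ran up to 0.66. Tlr3 lies on chromosome 8 at 45395665 to 45411080, minus strand, and its exons overlap those of Gm45542 on the other strand.

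Kmt5a, a histone methyltransferase, came next. It was at 184, 94.2, 147 and 169.9 FPKM in HFD IP, against 25.4, 54.9 and 47.7 FPKM in NCD IP, with input at 111, 102, 116 and 98.5 FPKM under HFD and 137, 109 and 99.9 FPKM under NCD. All control precipitates were below all other libraries, and the difference was 1.90 ± 0.37 (limma, adjusted p = 0.23). Zfyve27 encodes protrudin, a protein of the endoplasmic reticulum that promotes neurite outgrowth. It had 8.08, 4.99, 7.43 and 4.73 FPKM in HFD IP, against 1.03, 1.10 and 1.39 FPKM in NCD IP, and its difference was 1.98 ± 0.42. Zdhhc24, a member of the palmitoyltransferase family, had 24.2, 25.6, 21.9 and 17.4 FPKM in HFD IP, against 4.77, 10.4 and 8.45 FPKM in NCD IP. Its enrichment was -0.47 ± 0.22 under HFD and -2.06 ± 0.26 under NCD, below input in every pair.

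Pcif1, S100a10 and Mzt2 were enriched over input under HFD, and their enrichment under NCD did not pass the adjusted test. Pcif1, the methyltransferase of the adenosine beside the mRNA cap, was at 17.3, 18, 19.2 and 14.5 FPKM in HFD IP, against 6.16, 4.96 and 4.19 FPKM in NCD IP. Its input values were 2.02, 2.43, 3.08 and 2.04 FPKM under HFD and 2.64, 2.83 and 2.51 FPKM under NCD, so every precipitate was above every lysate, and the enrichment was 2.43 ± 0.25 under HFD and 0.73 ± 0.29 under NCD. S100a10, the annexin partner also called p11, was at 28.9, 18.7, 28.0 and 27.4 FPKM in HFD IP, against 2.02, 13.5 and 2.45 FPKM in NCD IP. Its input was 3.79, 2.73, 1.95 and 1.56 FPKM under HFD and 3.75, 3.99 and 2.95 FPKM under NCD, and only the control precipitate of index 1 lay clear above input among the controls. Mzt2, a component of the gamma-tubulin ring complex, was at 13.8, 26.4, 18.4 and 37.2 FPKM in HFD IP, against 0.945, 6.96 and 3.39 FPKM in NCD IP. The differences were 1.71 ± 0.39 for Pcif1, 2.72 ± 0.65 for S100a10 and 2.6 ± 0.61 for Mzt2. Exons of Pcif1 overlap those of Zfp335 on the other strand, whose difference was 0.71 ± 0.78.

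The other higher genes had differences of 1.45 to 3.40. Tmem41b, a lipid scramblase of the endoplasmic reticulum needed for autophagy, was at 18.8, 19.6, 22.2 and 20.5 FPKM in HFD IP, against 5.61, 12.8 and 6.96 FPKM in NCD IP. Its 4 high-fat values lay within a narrow band and above each control value. Coq10a, which binds coenzyme Q, had a difference of 2.07 ± 0.52, and Fam222b had 1.47 ± 0.37. Vps16, a subunit of the tethering complexes of endosomes and lysosomes, had the largest value among them at 3.40 ± 0.91. It was listed at 0 in the control precipitate of index 0, and its exons overlap those of Pced1a on the other strand, whose difference was 0.95 ± 0.75.

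Mir8112 was the 1 microRNA gene among them. Its mature sequence is shown with its seed, bases 2 to 8, in capitals, from RefSeq (GRCm38.p6, chr6:71271745-71271764, plus strand), to make clear which short RNA the symbol stands for.
mmu-miR-8112: uCUCCGCCaccuccaccgca
The entry was at 37.5, 21.6, 26.3 and 17.8 FPKM in HFD IP, against 1.34, 11.6 and 2.1 FPKM in NCD IP, with input at 24.3, 15.7, 18.1 and 17.9 FPKM under HFD and 26.0, 14.9 and 15.9 FPKM under NCD. Its span overlaps an exon of Krcc1 on the same strand, so the value of 2.49 ± 0.65 cannot be assigned to the mature microRNA.

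**Figure D3:**
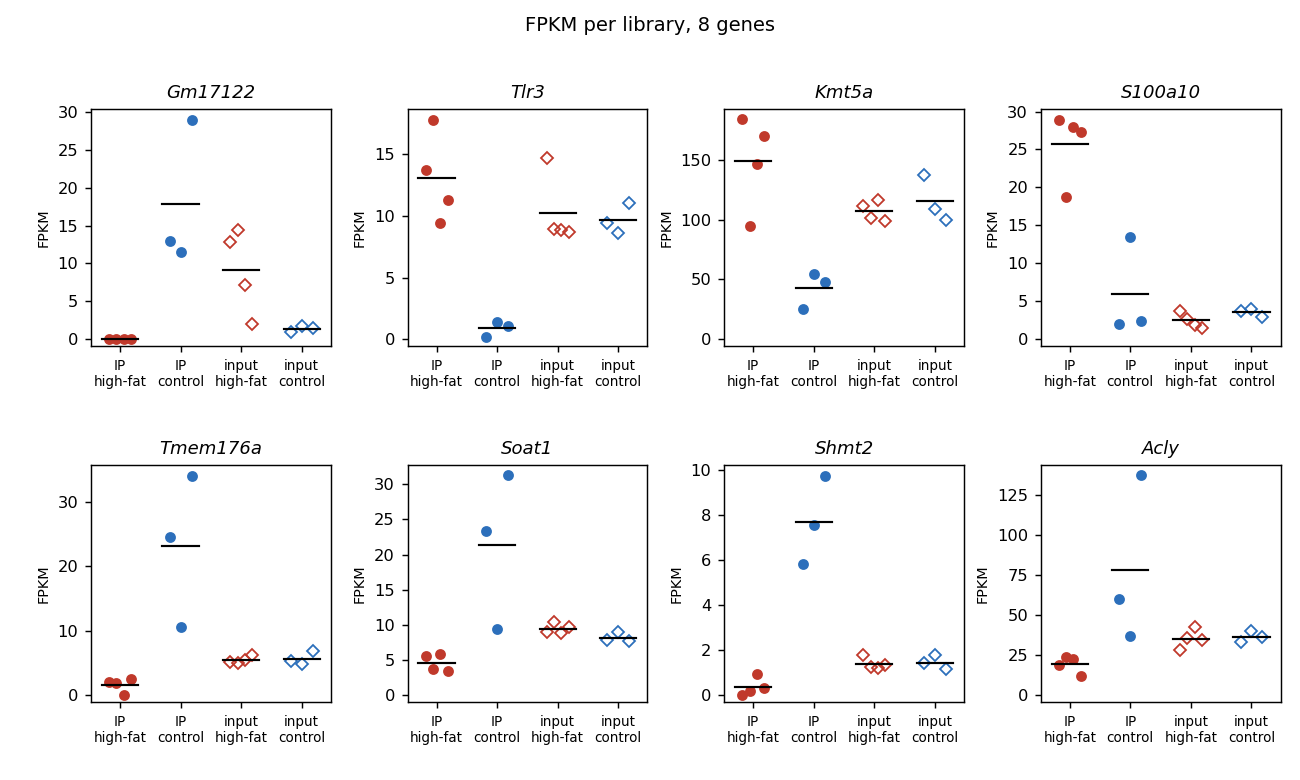
FPKM of each library is shown for 8 genes in 4 groups, with filled points for IP, open diamonds for input and bars for group means. Tlr3, Kmt5a and S100a10 are higher in HFD IP than in NCD IP, Tmem176a, Soat1, Shmt2 and Acly are lower, and their input groups lie close together. Gm17122 differs in both fractions and in opposite directions.

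Among genes with lower values, Shmt2 had the smallest p after Gm17122, though it lies below the mean of 5 FPKM used for naming and was singled out after its values were seen. It encodes the mitochondrial enzyme that passes a carbon unit from serine to folate. Its level was 0, 0.187, 0.953 and 0.334 FPKM in HFD IP, against 5.83, 7.58 and 9.76 FPKM in NCD IP, with input at 1.78, 1.25, 1.22 and 1.33 FPKM under HFD and 1.41, 1.78 and 1.15 FPKM under NCD. Every high-fat precipitate was below its input and every control precipitate above it, with a difference of -2.66 ± 0.44 (limma, adjusted p = 0.10). Shmt2 was past the threshold in 4 of 30 alternatives. Among these were the fit without a trend in the variance and the fit without both IP libraries of index 0 (limma, adjusted p = 0.029). In the others the adjusted p of Shmt2 by limma ran up to 0.66. Its position is chromosome 10, 127517123 to 127522444, minus strand, and its exons overlap those of Ndufa4l2 on the other strand.

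Tmem176a, a membrane protein gene, followed with 2.04, 1.91, 0 and 2.43 FPKM in HFD IP, against 24.6, 10.6 and 34.1 FPKM in NCD IP. Input did not separate the diets, at 5.15, 5.01, 5.40 and 6.19 FPKM under HFD and 5.27, 4.82 and 6.77 FPKM under NCD, and the difference was -3.18 ± 0.63 (limma, adjusted p = 0.23). Tmem176b, which overlaps it on the other strand, had a difference of 0.19 ± 0.46. Soat1, the enzyme that stores cholesterol as ester, was at 5.59, 3.72, 5.79 and 3.42 FPKM in HFD IP, against 23.4, 9.44 and 31.4 FPKM in NCD IP. It was below input in each high-fat pair and above it in each control pair, with a difference of -2.06 ± 0.48.

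Ptprs, Mgat5b and Caprin1 also had lower values in HFD IP, with no overlap of the IP groups. Ptprs, a receptor tyrosine phosphatase of axons that binds proteoglycans, was at 16.2, 11.9, 16.5 and 20.6 FPKM in HFD IP, against 72.3, 29.9 and 39.1 FPKM in NCD IP (difference -1.64 ± 0.41). Mgat5b, a glycosyltransferase of the brain, was at 5.56, 2.84, 5.30 and 9.57 FPKM in HFD IP, against 18.7, 9.76 and 32.7 FPKM in NCD IP (difference -2.25 ± 0.57). Caprin1, an RNA-binding protein of stress granules, was at 55.3, 55.9, 68.8 and 61.5 FPKM in HFD IP, against 185, 91.6 and 123 FPKM in NCD IP (difference -1.12 ± 0.30).

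The other lower genes had differences of -3.54 to -1.16. Aff4, a scaffold of the super elongation complex, was at 15.8, 19.2, 17.9 and 14.5 FPKM in HFD IP, against 41.9, 33.4 and 60.5 FPKM in NCD IP, and its difference was -1.16 ± 0.30. The differences were -1.90 ± 0.50 for Ints3 of the Integrator complex, -1.75 ± 0.43 for Actr8 of the INO80 chromatin remodeller and -2.05 ± 0.55 for Polk, a translesion DNA polymerase. Exons of Actr8 overlap those of Il17rb on the other strand. Trim41, a ubiquitin ligase whose exons overlap Rack1 on the other strand, had -2.75 ± 0.62, and Ap5s1, a subunit of an adaptor complex of late endosomes, had -1.86 ± 0.47. Dhx30, an RNA helicase that overlaps Smarcc1 on the other strand, had the largest value of the named genes after Gm17122 at -3.54 ± 0.95, with high-fat precipitates spread widely, at 0.0306, 2.32, 5.0 and 16.1 FPKM, below control precipitates at 71.1, 18.6 and 53.1 FPKM.

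Feeding peptides were the group the study's subject turns on. Of 34 listed genes, 24 were tested and none passed, with 3 higher and 0 lower at an unadjusted p under 0.05 and a median difference of 0.22. Over all genes 3.33% were higher at that p and the median was -0.02. At a mean of at least 5 FPKM the median of the feeding peptides was -0.02. The 3 were Pnoc, Pomc and Agrp. Pnoc, the precursor of nociceptin, was at 3.37, 1.40, 4.66 and 3.00 FPKM in HFD IP, against 0.178, 0.773 and 0.278 FPKM in NCD IP, while input stayed at 0.752, 0.727, 1.15 and 0.871 FPKM under HFD and 0.971, 1.14 and 0.583 FPKM under NCD. Its precipitates were above input in each high-fat pair and below input in each control pair, with an enrichment of 1.07 ± 0.30 under HFD and -0.44 ± 0.35 under NCD. The difference was 1.51 ± 0.46 (limma, adjusted p = 0.59). Pnoc averaged 3.11 FPKM in HFD IP, against 0.409 in NCD IP, 0.876 in HFD input and 0.899 in NCD input. Only HFD IP was above the filter of 1 FPKM, so Pnoc was tested through the group where it was high.

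Pomc, the precursor of the melanocortins, had enrichments of 4.00, 2.47, 2.56 and 2.16 in the high-fat pairs and -1.22, 1.42 and 1.65 in the control pairs. The diets did not overlap, and the lowest pair was the control pair of index 0, whose precipitate was listed at 0. The difference was 2.18 ± 0.80 (limma, adjusted p = 0.66), and 1.06 without both IP libraries of index 0. Agrp, the melanocortin antagonist, had enrichments of 4.83, 2.67, -0.07 and 2.56 in the high-fat pairs and -1.29, -0.19 and 1.32 in the control pairs. These overlapped, because the high-fat pair of index 2 was near 0, and the difference was 2.55 ± 1.11 (limma, adjusted p = 0.73), or 1.3 without both IP libraries of index 0. Agrp was at 0, 0.949, 0.684 and 0.595 FPKM in HFD input, against 1.44, 1.51 and 2.02 FPKM in NCD input, and the input groups did not overlap. The locus of Agrp shares exon sequence with Ctcf, which runs on the other strand.

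Npy, expressed by the same neurons as Agrp, had a value in the other direction. Its enrichments were -2.70, 1.04, 2.30 and 1.89 in the high-fat pairs and 0.88, 1.25 and 3.65 in the control pairs, with overlap of the diets and a difference of -1.29 ± 1.18 (-0.30 without the HFD IP library of index 0). Cartpt and the activity gene Fos had differences of 0.04 ± 0.48 and 0.40 ± 0.63, within about their error. Crh, the stress peptide, had 1.32, 1.01, 0 and 0.0947 FPKM in HFD IP, against 0, 16.4 and 11.5 FPKM in NCD IP, and a difference of -1.89 ± 1.00 (limma, adjusted p = 0.75). Its only overlap came from the control precipitate of index 0, listed at 0. Without both IP libraries of index 0 the difference was -3.39 (limma, adjusted p = 0.020). Crh passed in 2 of 30 alternatives, and its adjusted p by limma ran up to 0.99. Both of the 2 left out the NCD IP library of index 0, the control precipitate that caused the overlap, so they are no separate support. It averaged 9.28 FPKM in NCD IP, against 0.604 in HFD IP, 0.188 in HFD input and 0.284 in NCD input. Crh thus passed the filter of 1 FPKM through NCD IP, the group where it was high. An exact two-sided permutation test of the pairwise enrichments, for which 35 splits give a smallest p of 0.0286, gave that value for Pnoc and for Pomc. The same exact test gave p = 0.143 for Agrp, 0.514 for Npy, 0.886 for Cartpt and 0.486 for Fos. The genes of this test were chosen with earlier results of these data known. Over all tested genes, the pairs of the diets did not overlap in 6.72%.

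**Figure D4:**
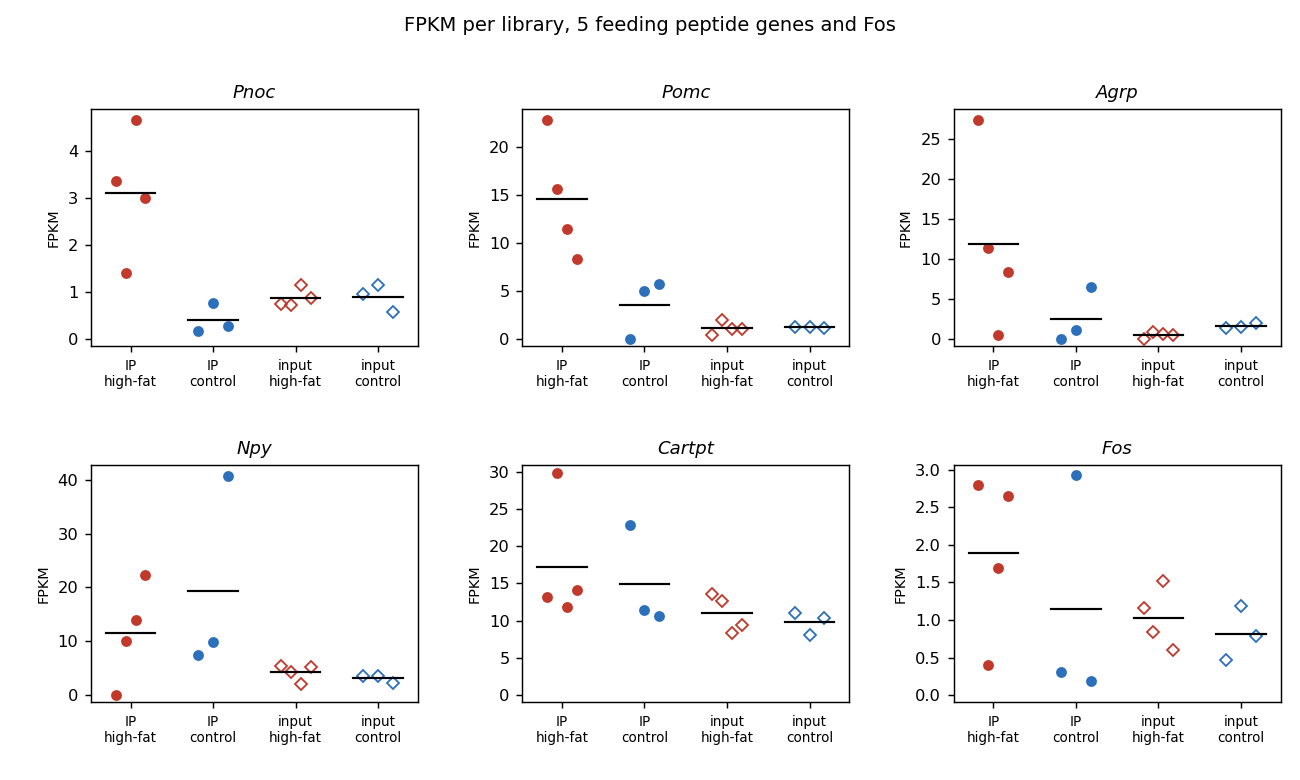
FPKM of each library is shown for Pnoc, Pomc, Agrp, Npy, Cartpt and Fos in the 4 groups, with filled points for IP, open diamonds for input and bars for means. In IP, the high-fat points lie above the control points for Pnoc and Pomc, and the diets overlap for the other genes.

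Receptors for feeding signals were tested for 29 of 40 listed genes. None passed, with 4 higher and 1 lower at an unadjusted p under 0.05, where 3.33% and 3.44% of all genes were. The median was 0.07, and it turned to -0.28 at a mean of at least 5 FPKM and to -0.12 without a filter. Oprd1, the delta opioid receptor, was at 9.67, 1.46, 1.74 and 2.32 FPKM in HFD IP, against 0, 0.703 and 0.0718 FPKM in NCD IP, with no overlap of the pairs (1.61 ± 0.63, and 0.98 without both IP libraries of index 0). Lepr, the leptin receptor, was at 0.143, 2.52, 4.06 and 4.72 FPKM in HFD IP, against 0.890, 0.773 and 0.0569 FPKM in NCD IP, where the high-fat library of index 0 lay among the controls (1.51 ± 0.68). Lepr averaged 2.86 FPKM in HFD IP, 0.573 in NCD IP, 0.682 in HFD input and 1.34 in NCD input. It thus passed the filter of 1 FPKM largely through HFD IP. Ghr, the growth hormone receptor, had 1.68 ± 0.72 (0.95 without both IP libraries of index 0 and 0.70 with array weights), and Cckbr, a cholecystokinin receptor, had 1.13 ± 0.50. The gene in the other direction was Oprm1, the mu opioid receptor, with -1.20 ± 0.55, named after its value was seen.

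No activity-induced gene passed. Of 25 listed genes 16 were tested and none had an unadjusted p under 0.05, with 11 differences above and 5 below 0. Fosb, a transcription factor of the Fos family that accumulates with repeated activity, was enriched on both diets, by 2.05 ± 0.30 under HFD and 1.28 ± 0.35 under NCD. Egr3 was at 26.5, 21.1, 13.5 and 10.8 FPKM in HFD IP, against 0.861, 11.2 and 17.6 FPKM in NCD IP, and only the control library of index 0 lay far from the others. The median of the list was 0.20, and -0.04 without both IP libraries of index 0. Granins and peptide-processing enzymes had a median of -0.001 over 17 tested genes (0.05 under quantile normalization and 0.01 under median-ratio scaling) and none at an unadjusted p under 0.05.

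No gene of lipid metabolism passed. Of 34 listed genes 28 were tested, with 9 differences above and 19 below 0 and a median of -0.22, and 4 were lower and 0 higher at an unadjusted p under 0.05, where 3.44% of all genes were lower. Lpl, the lipase that frees fatty acids from lipoproteins, was at 0.127, 0.508, 0.301 and 2.64 FPKM in HFD IP, against 6.17, 3.05 and 6.90 FPKM in NCD IP. The IP groups did not overlap, although 1 high-fat pair reached into the control range of enrichment (-2.03 ± 0.57). Acly, which makes cytosolic acetyl-CoA for fatty acid synthesis, was at 19.0, 23.5, 22.5 and 12.2 FPKM in HFD IP, against 60.1, 36.6 and 137 FPKM in NCD IP (-1.73 ± 0.49). Acadm, which starts the oxidation of medium-chain fatty acids in mitochondria, had -1.97 ± 0.74. Input of Lpl, Acly and Acadm differed by no more than 0.17 between the diets on the log2 scale.

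Ribosomal protein genes had high enrichment on both diets, with lower values under HFD in most. For 79 of 82 listed cytosolic ribosomal protein genes the median enrichment was 2.81 under HFD and 3.10 under NCD. Of the 79 differences 66 were below 0, where 6374 of 12478 genes were. Their median was -0.35, and it ran from -0.54 to -0.10 over the alternatives. None passed the adjusted test, and 1 was lower at an unadjusted p under 0.05, Rpl17 (-1.33 ± 0.53). By library, the mean enrichment of the list was 3.34, 2.85, 2.40 and 2.79 in the high-fat pairs and 3.37, 2.94 and 3.10 in the control pairs. The diets overlapped, with the high-fat pair of index 0 among the controls. Translation factors had a median of -0.16 over 36 tested genes, with Eif6, a factor that keeps ribosomal subunits apart, at 1.59 ± 0.73 (0.93 without the HFD IP library of index 0) and Eif3l, a subunit of an initiation factor, at -1.68 ± 0.74 (-0.95 without the NCD IP library of index 2). Genes of the mTOR and S6 pathway itself had a median of -0.15 over 33 tested genes, and 0.02 with array weights. None of them had an unadjusted p under 0.05. Irs2, an adaptor of the insulin receptor, had -0.99 ± 0.47, and Pik3cb, a catalytic subunit of phosphoinositide kinase, had 0.99 ± 0.50. Without the NCD pair of index 2 these were -0.61 and 0.61.

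Genes of oxidative phosphorylation were read as nuclear and as mitochondrially encoded lists. The 70 tested nuclear genes of oxidative phosphorylation had a median of -0.01 (0.01 under quantile normalization and also 0.01 under median-ratio scaling), with 34 differences above 0 and 36 below. Ndufa10 of complex I had 0.97 ± 0.35, and Cox7a2 of complex IV had -0.48 ± 0.21. Cox7a2 was at 203, 239, 175 and 214 FPKM in HFD IP, against 246, 221 and 253 FPKM in NCD IP, with overlap. Its input was 42.9, 39.2, 38.2 and 38.8 FPKM under HFD and 34.7, 32.6 and 31.1 FPKM under NCD, without overlap. The diet difference of Cox7a2 was 0.27 in input and -0.21 in IP. Sdhb of complex II had -0.84 ± 0.38 (-0.46 without the NCD IP library of index 2). The 10 tested mitochondrially encoded genes had a median of -0.71, which ran from -1.31 to -0.095 over the alternatives. Of their 10 differences 9 were below 0, where 6374 of 12478 genes were, and none had an unadjusted p under 0.05. These genes share 1 genome and 1 set of long transcripts. Their median enrichment was -2.70 under HFD and -2.0 under NCD. By pair, the mean over the list was -1.78, -3.10, -2.29 and -3.36 in the HFD pairs and -0.90, -1.92 and -2.90 in the NCD pairs, so the diets overlapped.

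Genes of the endoplasmic reticulum stress response had a median of 0.04 over 23 tested genes (-0.15 with array weights and -0.07 without both IP libraries of index 0). Xbp1, a transcription factor of that response, was at 19.9, 14.6, 7.78 and 14.8 FPKM in HFD IP, against 2.1, 6.22 and 4.41 FPKM in NCD IP, with no overlap of the pairs (1.34 ± 0.47, and 0.83 without both IP libraries of index 0). Herpud1, which aids degradation of misfolded proteins, and Sdf2l1, a chaperone cofactor, had values in the other direction at -1.71 ± 0.80 and -1.22 ± 0.57. Circadian clock genes (19 tested, median 0.09, and -0.001 with array weights), genes induced by glucocorticoids (14 tested, median -0.05, and 0.17 with array weights) and nuclear long non-coding RNAs (8 tested, median -0.51) had no member past the threshold. Snhg5, a host gene of small nucleolar RNAs, was at 156, 91.1, 132 and 96.7 FPKM in HFD IP, against 35.8, 71.1 and 9.12 FPKM in NCD IP (1.54 ± 0.65, and 0.76 without the NCD IP library of index 2), in a list of 11 tested genes with a median of -0.06.

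Markers of cell types that the dissected tissue could hold were read in the same way, and none passed. Choroid plexus markers had the highest median above 0, 0.38 over 13 tested genes of 17 listed, with 11 differences above 0 and 2 higher at an unadjusted p under 0.05, where 6104 of 12478 genes were above 0 and 3.33% were higher. The median ran between 0.18 without the HFD input library of index 1 and 0.90 without the HFD IP library of index 1. Slc13a4, a sulfate transporter of that epithelium, was at 10.1, 5.93, 4.93 and 8.63 FPKM in HFD IP, against 0, 3.95 and 1.22 FPKM in NCD IP (1.88 ± 0.63, and 1.15 without both IP libraries of index 0). Folr1, a folate receptor, was at 28.3, 3.66, 18.2 and 3.93 FPKM in HFD IP, against 3.95, 1.21 and 0.208 FPKM in NCD IP (2.16 ± 0.89). Folr1 averaged 13.5 FPKM in HFD IP, 1.79 in NCD IP, 0.292 in HFD input and 0.249 in NCD input. It thus passed the filter of 1 FPKM largely through HFD IP, where it was high. The mean level of the list was 2.57 to 4.00 in HFD IP, 2.34 to 3.15 in NCD IP, 1.07 to 1.98 in HFD input and 1.33 to 1.43 in NCD input, on the log2 scale. Ttr, the main secreted protein of that epithelium and named here for that role, was at 759, 237, 811 and 1364 FPKM in HFD IP, against 551, 353 and 274 FPKM in NCD IP, and at 98.1, 15.6, 89.6 and 105 FPKM under HFD and 48.9, 42.3 and 33.2 FPKM under NCD in input. The input libraries thus varied in choroid plexus RNA too, most of all on high-fat diet, and its part in the differences of other genes was not tested.

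The other cell type lists had medians on both sides of 0. Microglia markers had 0.08 over 13 tested genes (-0.31 without the NCD IP library of index 0 and 0.66 at a mean of at least 5 FPKM), with Ctss, a lysosomal protease, at 17.5, 6.96, 4.14 and 6.71 FPKM in HFD IP, against 3.27, 2.78 and 0.772 FPKM in NCD IP (1.34 ± 0.58). The microglia differences were above 0 in 8 genes and below 0 in 5, from -0.77 to 1.48. Tanycyte and ependymal markers had 0.30 over 10 tested genes, 7 above and 3 below 0. They ran from -1.72 up to 1.54 ± 0.62 for Gpr50, an orphan receptor of tanycytes. Astrocyte markers had 0.002 over 17 tested genes, and mature oligodendrocyte markers had -0.15 over 17 (0.05 with array weights). Their precursors had -0.36 over 9 tested genes, and endothelial and mural markers had -0.56 over 5, but without both IP libraries of index 0 these medians were 0.05 and 0.01. Pan-neuronal markers had 0.05 over 20 tested genes (-0.07 without both IP libraries of index 0), with a median enrichment of 0.76 under HFD and 0.81 under NCD. Hypothalamic transcription factors had 0.17 over 10 tested genes (-0.28 and 0.50 at the extremes of the alternatives), and genes of GABA and glutamate neurons had -0.13 over 14 (0.07 with array weights). Markers of neighbouring regions had 0.02 over 15 tested genes for thalamus, -0.09 over 9 for striatum (0.04 under quantile normalization) and 0.12 over 9 for hippocampus and cortex (-0.05 without both IP libraries of index 0). Blood cell markers had -0.44 over 6 tested genes, and the 1 tested pituitary marker, Tshb, had 0.30 ± 0.70.

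**Figure D5:**
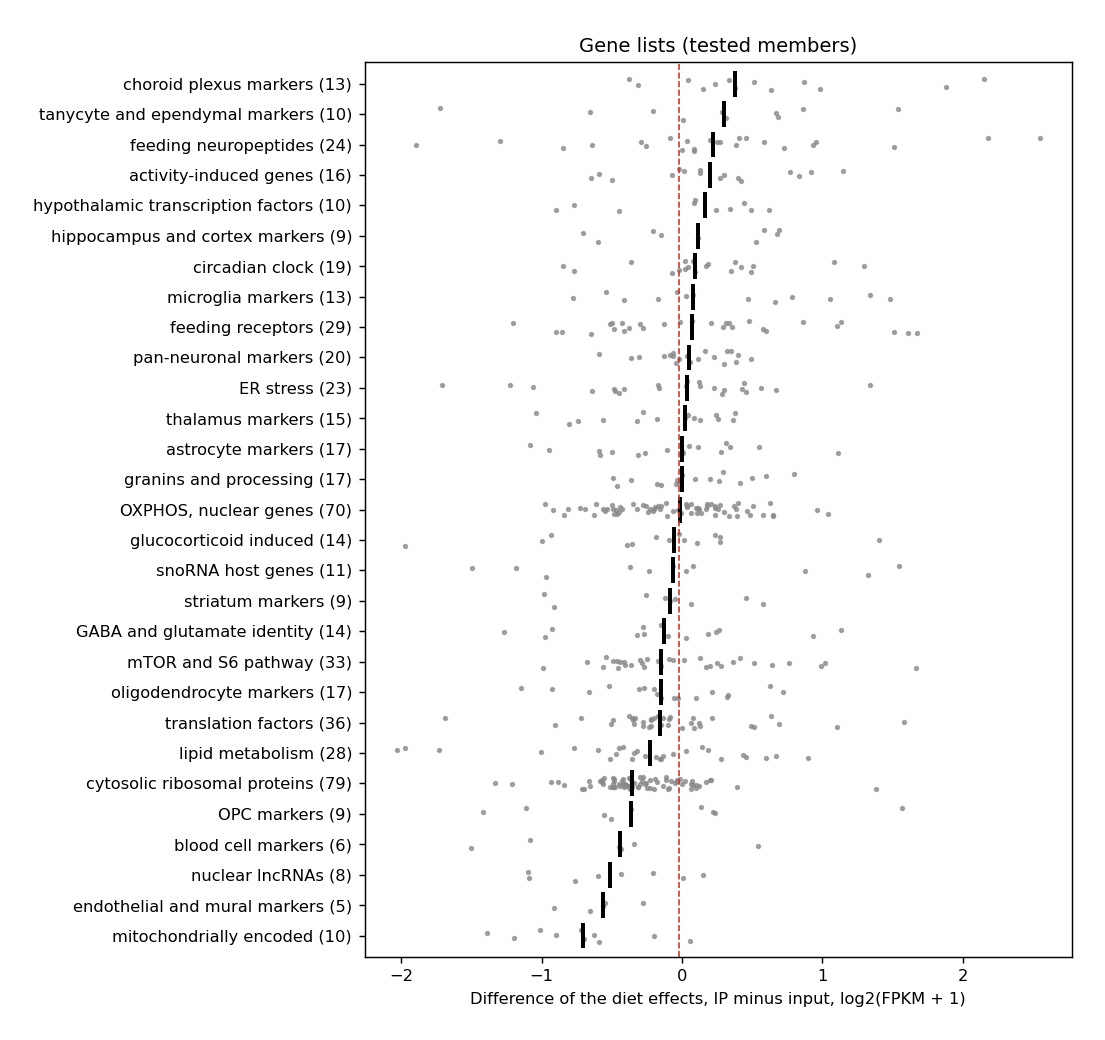
Each point is the difference of the diet effects (IP minus input, log2(FPKM + 1)) of 1 tested member of a gene list, with the number of tested members in parentheses. Black bars are list medians and the dashed line is the median of all tested genes at -0.02. List medians run between 0.38 for choroid plexus markers and -0.71 for mitochondrially encoded genes, inside the spread of their members.

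The direction of the smaller p-values varied with transcript length. The median difference was -0.01 up to 1000 bases and 0.05 for the 1871 genes with transcripts of 1000 to 2000 bases. It was -0.02 at 2000 to 4000 bases, -0.04 at 4000 to 8000 bases and -0.08 for the 782 genes over 8000 bases. At an unadjusted p under 0.05, 38 genes were higher and 22 lower up to 1000 bases, and 93 and 65 at 1000 to 2000 bases. The counts were 165 and 155 at 2000 to 4000 bases, 113 and 153 at 4000 to 8000 bases, and 6 and 34 over 8000 bases. Over all genes they were 415 and 429. The share at that p was 5.12% over 8000 bases and 8.44% at 1000 to 2000 bases, the extremes of the bins, against 6.76% of all genes. Enrichment on its own declined with length on both diets, with a median of 1.17 up to 1000 bases and -0.66 over 8000 bases under HFD, and 1.13 and -0.56 under NCD. The median absolute difference was 0.513 for genes with a mean of 2 to 5 FPKM and 0.251 for those over 100 FPKM.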

How the data were processed

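One table of the whole series was used, with FPKM for 7 IP and 7 input libraries, deposited by the authors as normalized values. How libraries were scaled to each other is not given in the sources used here. Tools named in the submitters' processing notes, without their roles, are Cufflinks 2.2.1, Cuffdiff, HISAT2 2.1.0 and StringTie 1.3.4d, and the genome build is GRCm38.p6. Per the file headers the authors also list a ratio (fold) of IP to input for each pair of columns. In all 96385 entries that hold one it equalled IP over input FPKM of one diet and one index (relative tolerance 0.001), which is how pairs were taken. Column names hold an index from 0 and no label's replicate number, so they were assigned to groups and are named by index. The authors' deposited p-value and log2 change columns were not used.

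Genes with a mean of at least 1 FPKM were kept (12484 entries, 12478 after keeping 1 entry per symbol, with 2047 entries below the filter). Values were transformed to log2(FPKM + 1), and the 4 group means were fitted over all 14 libraries with limma 3.58.1 (R 4.3.3, trended empirical Bayes variance, IP and input taken as independent). The contrast was (IP_HFD - IP_NCD) - (Input_HFD - Input_NCD), two-sided, with Benjamini-Hochberg adjustment over all tested genes and a threshold of 0.05. Differences are given with their limma standard error (±), and values in parentheses without another label are these differences. Single-gene permutation tests used SciPy 1.17.1. The fit was also run on simulated data, where it called some unchanged genes and missed most changes of 1 on the log2 scale. Positions and overlaps came from GENCODE M21 (GRCm38), matched by identifier for 12468 genes. Named genes were, per direction, up to 12 past the threshold without overlap of the pairs, and where fewer passed, the 12 with the smallest p among non-overlapping genes with a mean of at least 5 FPKM and a usual symbol, plus, from each list described, at most 4 members by smallest p, and Pnoc, Pomc, Agrp, Npy, Cartpt and Fos. A gene that this rule names is not reported here. The 30 gene lists and these 6 genes were chosen with earlier results of these data known. Alternatives were another pseudocount, filter, scaling, variance model and replicate block, and leaving out each library or pair.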

Additional observations from a re-analysis of the deposited data

Results flagged for a closer look

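Gm17122 had a diet effect of -5.95 in IP relative to input (log2), with opposite signs in the fractions: values of practically 0 in all high-fat precipitates, below all control precipitates, and input values on high-fat diet above those on control diet. The difference between the fractions passed limma's test (adjusted p = 0.0053), and in 8 of 31 alternatives it did not, with adjusted p up to 0.67.

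Among the 4 high-fat pairs, 1 pair lay far from the other 3 in 5 of 104 sets of enrichments checked by Dixon's criterion, where chance flags about 1 in 20. For Coq10a it was the pair of index 2 at 2.02, and for Tmem176a the pair of index 2 at -2.68, whose precipitate was listed at 0. For Caprin1 the pair of index 0 stood apart at -0.576, for Lpl the pair of index 3 at 0.905 and for Acadm the pair of index 0 at -2.57. The cause was not tested in any of them.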

How the results depend on the processing

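The count of called genes was 1, Gm17122, with a pseudocount of 0.1, no filter, a mean of at least 5 FPKM, median-ratio scaling and quantile normalization. It was 0 with the replicate block (smallest adjusted p 0.0662), with array weights and with separate variances for IP and input, an alternative chosen after seeing the data, 3 without a trend in the variance (Gm17122, Shmt2 and Tlr3) and 12 without both IP libraries of index 0. Leaving out 1 library or 1 pair gave 0 to 128, with 0 only where a pair was left out. The block follows the index by which the authors formed their ratios. The correlation of deviations from the group means within such pairs was -0.004 to 0.058, and in 6 of 7 pairs it was highest with the library of the same index, a hint from the data, since the labels state no pairing of the columns.

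Genes without overlap of the pairs numbered 271 higher of 7768 tested at a mean of at least 5 FPKM, against 439 of 12478 in the main fit. The smallest count of lower genes over the alternatives was 269, against 399 in the main fit. Without both IP libraries of index 0 there were 1377 higher and 1412 lower of 12478. Leaving out 1 library or pair gave 618 to 1270 higher and 620 to 1255 lower, since fewer pairs separate more easily. Of 74 named genes under 31 alternatives, 71 never changed sign. Most of these genes were named for a small p or for separated pairs in these same data. The alternatives also reuse most of the same values, so a kept sign is no independent support. The share over all tested genes was not computed. Fos was -0.31 with array weights and -0.0086 without both IP libraries of index 0, where Egr3 was -0.064, and Cartpt ran between -0.25 and 0.37 when libraries or pairs were left out. The cause was not tested. With 4 and 3 pools per fraction and widely spread IP libraries, the typical standard error of 0.562 exceeds the typical difference, and read depth is unknown.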
